A study of Homo sapiens with 8 samples.

Results

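Vascular endothelial growth factor (VEGF) ligands, their receptors and the neuropilins were described in A673 cells treated with vehicle or with JIB-04. The 8 genes were the ligands VEGFA, VEGFB, VEGFC and PGF, the receptors FLT1 and KDR, and the co-receptors NRP1 and NRP2, each taken as the row of the expression table that carries its symbol, out of 65975 identifiers. VEGFC and KDR stayed under 1 FPKM (fragments per kilobase of transcript, scaled to the mapped fragments of the library) in all 8 libraries, and FLT1 did so in the 4 vehicle libraries. The other 5 genes were above 1 FPKM in every library.

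RNA-seq libraries were prepared from A673, a single established Ewing Sarcoma cell line that carries the EWS/FLI1 fusion. The vehicle group received DMSO and the treated group 2 μM JIB-04, a small-molecule inhibitor of Jumonji histone demethylases, both for 36 hours with 4 libraries each. The comparison asks how gene expression differs between drug and vehicle after that time. Neither the methods nor the labels say that the quadruplicates were separate cultures, so every p-value measures only the spread between these samples. Expression values summed to 1346289 to 1370436 FPKM in the vehicle libraries and to 1175407 to 1237186 FPKM in the JIB-04 libraries, and transcripts of the mitochondrial genome held 9.99% to 10.6% and 4.59% to 5.54% of these sums. The number of reads is not known from FPKM. Steps between low values gave relative depths of 0.825 to 0.959 of vehicle replicate 1 for the other vehicle libraries and of 0.766 to 0.926 for the JIB-04 libraries. All 7 genes listed for Ewing Sarcoma cells were expressed in both groups. Of these, 5 fell, FLI1 rose from 60.4 ± 2.1 to 71.3 ± 2.17 FPKM, and NR0B1 did not pass the test (limma). Among all genes tested, 38.0% fell and 34.2% rose. The largest fall was that of CD99, the surface antigen used in diagnosis, from 1.16e+03 ± 30.5 to 599 ± 24.4 FPKM (n = 4 libraries each, mean ± SD, log2 fold change -0.95). The falls of EWSR1 (-0.23) and STEAP1 (-0.21) were small.

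VEGF ligands are secreted dimers that bind receptor tyrosine kinases, best known on the endothelial cells that line blood vessels. VEGFA drives vessel growth mainly through KDR, whereas VEGFB and PGF bind FLT1, which holds ligand tightly but signals weakly and also exists as a soluble decoy. VEGFC acts through FLT4 in lymphatic vessels, and the neuropilins bind both VEGF ligands and class 3 semaphorins. Tumor cells commonly secrete VEGFA, and hypoxia-inducible factor (HIF) is its best known activator.

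With JIB-04, VEGFA rose while VEGFB and PGF fell, and NRP1 and FLT1 rose. Of the 8 genes, 6 averaged 1 FPKM or more across all libraries and entered the test across 17460 genes (limma on log2(FPKM + 0.5), Benjamini-Hochberg adjusted p under 0.05). FLT1 entered it only through its JIB-04 values. VEGFA, NRP1 and FLT1 were higher, VEGFB and PGF were lower, and NRP2 did not pass. Among all genes tested, 34.2% were higher and 38.0% were lower, so a call in either direction was common in these cells. VEGFA, NRP1 and FLT1 were higher at least 2-fold, as were 13.1% of all genes (FLT1 not with a pseudocount of 1, where its log2 fold change was 0.94), and VEGFB was lower at least 2-fold, as were 11.8%. The libraries of the 2 groups did not overlap for 5 of the 6 genes tested, against 67.3% of all genes. The median log2 fold change was 0.76 over the 6 genes and -0.07 over all genes. The former lies between NRP2 (0.30) and FLT1 (1.23), and no gene stood near it. Because 0.5 was added to each FPKM before logs were taken, fold changes of genes at low levels are understated. Values in a bulk sample cannot tell fewer cells of a type from less RNA per cell.

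**Figure D1:**
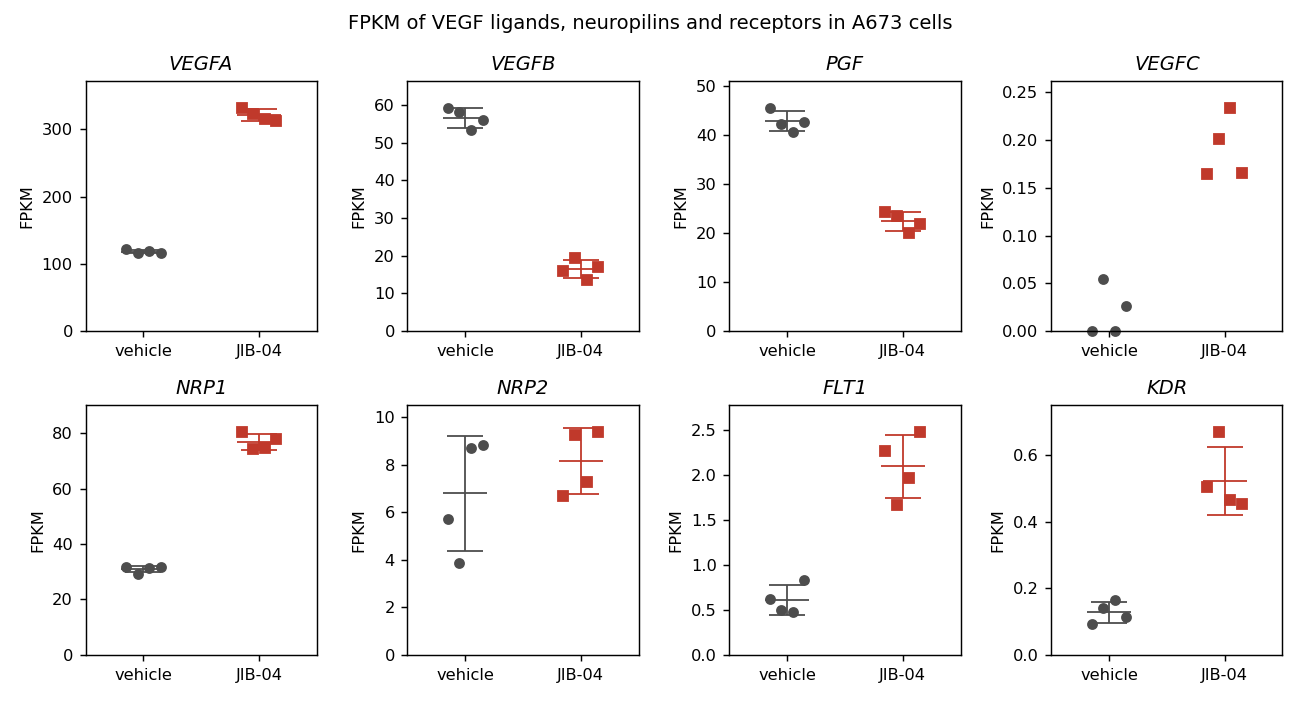
Expression in FPKM (linear axes from 0, a separate scale for each gene) of the 8 genes in the 4 vehicle (circles) and 4 JIB-04 libraries (squares), with bars for mean ± SD except for VEGFC, which was listed at 0 in 2 vehicle libraries. The groups are apart for every gene except NRP2, where they overlap.

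VEGFA (ENSG00000112715, chromosome 6 from 43770184 to 43786487 on the plus strand of GRCh38) encodes the main ligand of vessel growth. Vehicle replicates 1 to 4 held 122, 116, 119 and 117 FPKM, and JIB-04 replicates 1 to 4 held 332, 324, 316 and 312 FPKM. Every JIB-04 library was thus far above every vehicle library, and the spread within each group was small. The mean rose from 118 ± 2.68 to 321 ± 8.92 FPKM (SD, n = 4 per group), a ratio of 2.71, and the log2 fold change was 1.43 (standard error, SE, 0.04, 95% interval 1.35 to 1.52, limma adjusted p = 3.7e-09). VEGFA was already expressed above 88.5% of the genes tested in vehicle, and above 96.4% of them with JIB-04. FPKM summed over a gene do not resolve its splice isoforms, which for VEGFA differ in how tightly the protein is held by the matrix.

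VEGFB (ENSG00000173511, chromosome 11 from 64234538 to 64238793, plus strand), a ligand of FLT1 and NRP1 studied mainly in heart and other metabolically active tissue, moved the opposite way. It stood at 59.2, 58.0, 53.2 and 56.0 FPKM in the vehicle libraries and at 16.1, 19.5, 13.5 and 17 FPKM in the JIB-04 libraries. No JIB-04 library reached the lowest vehicle value. The mean fell from 56.6 ± 2.61 to 16.5 ± 2.46 FPKM (SD, n = 4 per group), to 0.292 of its vehicle level, and the log2 fold change of -1.76 (SE 0.10, 95% interval -1.98 to -1.53, limma adjusted p = 3.29e-07) was lower than that of all but 2.49% of the genes tested. VEGFB transcripts had a GC content of 66.7%, against a median of 48.1% over 12251 protein-coding genes tested, and the log2 fold change across those genes correlated with GC content (Spearman rho -0.32, across genes, which are not independent replicates). With that trend removed (chosen after the data had been seen), the log2 fold change of VEGFB was -1.13 with a limma adjusted p of 6.35e-06.

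PGF (ENSG00000119630, chromosome 14 from 74941834 to 74955784, minus strand) encodes placental growth factor, the other ligand specific for FLT1. Its vehicle values were 45.6, 42.2, 40.7 and 42.8 FPKM, and its JIB-04 values were 24.3, 23.6, 20.0 and 21.8 FPKM. The 2 groups were again fully apart. PGF fell from 42.8 ± 2.05 to 22.4 ± 1.93 FPKM (SD, n = 4 per group), to 0.523 of its vehicle level, and the log2 fold change was -0.92 (SE 0.07, 95% interval -1.08 to -0.76, limma adjusted p = 2.4e-06). With the GC trend removed it was -0.67 (limma adjusted p = 2.21e-05), outside that interval. Both ligands that bind FLT1 but not KDR were therefore lower with the drug.

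VEGFC (ENSG00000150630, chromosome 4 from 176683538 to 176792727, minus strand), the lymphatic ligand, was barely detected. It was listed at 0, 0.0552, 0 and 0.0262 FPKM in the vehicle libraries and at 0.165, 0.201, 0.234 and 0.166 FPKM with JIB-04. Scaled by relative depth, the vehicle values came to 0, 2, 0 and 1 times the smallest value above 0, where 0 and 1 hold by construction. The JIB-04 values came to 5.98, 6.79, 7.98 and 6.75 times it. These multiples do not give numbers of reads. All JIB-04 values were above all vehicle values, which also held for 19.9% of the 10580 genes with a mean between 0.05 and 1 FPKM, and no fold change is given because 2 vehicle libraries were at 0.

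The make-up of ligand expression changed with these opposite moves. The 4 ligands together came to 227, 217, 213 and 215 FPKM in the vehicle libraries and to 373, 367, 350 and 351 FPKM in the treated ones. VEGFA made up 53.8%, 53.7%, 55.9% and 54.1% of that sum in the vehicle libraries and 89.1%, 88.2%, 90.3% and 88.9% of it in the JIB-04 libraries. VEGFB went from 26.0% to 4.59% of the sum on average and PGF from 19.7% to 6.22%, while VEGFC stayed between 0% and 0.0669%. FPKM are per length of transcript, so these shares compare genes on a common scale of RNA, not of protein.

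**Figure D2:**
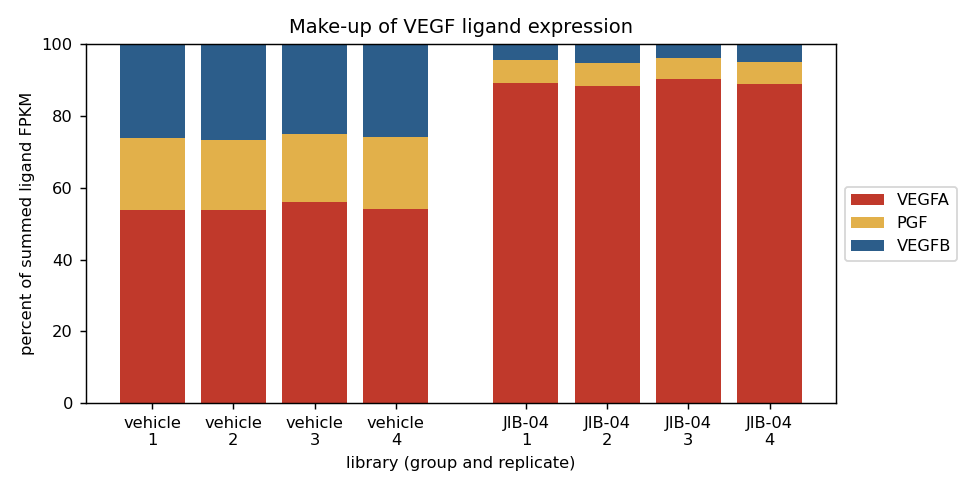
Stacked bars give the percent of summed ligand FPKM held by VEGFA, PGF and VEGFB in each of the 8 libraries; VEGFC is too low to be drawn. VEGFA holds 53.7% to 55.9% in the vehicle libraries and 88.2% to 90.3% in the JIB-04 libraries.

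The ratio of VEGFA to VEGFB is given because scaling of a library changes both genes alike. A trend with GC content does not cancel in it. With that trend removed, the log2 fold changes were 1.67 for VEGFA and -1.13 for VEGFB. It was 2.06, 2.01, 2.23 and 2.08 in the vehicle libraries and 20.6, 16.6, 23.3 and 18.4 in the JIB-04 libraries. On the log2(FPKM + 0.5) scale the ratio rose from 1.06 ± 0.07 to 4.25 ± 0.21 (SD, n = 4 per group), a change of 3.19 with an exact two-sided permutation p = 0.0286, the smallest that 4 against 4 libraries allow. Both genes already separated the groups fully, in opposite directions, and were chosen with earlier results known. The p-value of the ratio was thus fixed in advance and adds no evidence. The order of VEGFB and PGF also turned: the ratio of PGF to VEGFB lay between 0.728 and 0.771 in vehicle and between 1.21 and 1.51 with JIB-04.

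**Figure D3:**
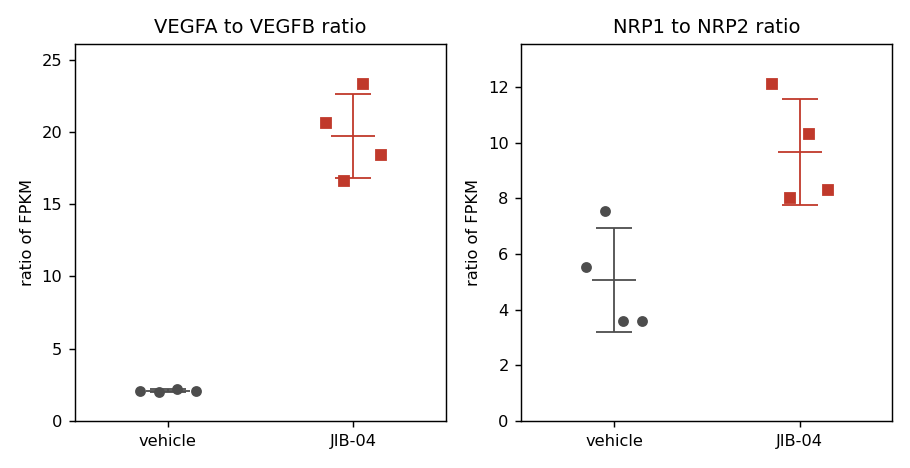
Ratios of FPKM in the 4 vehicle and 4 JIB-04 libraries (points, with mean ± SD; linear axes from 0) for VEGFA to VEGFB on the left and NRP1 to NRP2 on the right. The VEGFA to VEGFB ratio goes from at most 2.23 to at least 16.6, and the NRP1 to NRP2 ratio goes from at most 7.54 to at least 8.01.

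Of the receptors, FLT1 (ENSG00000102755, chromosome 13 from 28300344 to 28495145, minus strand) rose from a low level. Vehicle libraries held 0.617, 0.503, 0.478 and 0.837 FPKM and JIB-04 libraries held 2.26, 1.67, 1.97 and 2.48 FPKM. Every JIB-04 value lay above 1 FPKM and every vehicle value below it. The mean went from 0.609 ± 0.164 to 2.10 ± 0.353 FPKM (SD, n = 4 per group), a ratio of 3.44, and the log2 fold change was 1.23 (SE 0.17, 95% interval 0.85 to 1.61, limma adjusted p = 0.000129). Even so, only 13.7% of the genes tested had a lower mean than FLT1 with JIB-04. A processed copy of the gene, FLT1P1, was listed at 0 to 0.198 FPKM, and the sources used here do not say how reads shared by such copies were assigned. Its soluble and membrane-bound forms cannot be told apart in these values.

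KDR (ENSG00000128052, chromosome 4 from 55078259 to 55125595, minus strand), the main signaling receptor for VEGFA on endothelium, stayed under 1 FPKM throughout. Its values were 0.0926, 0.140, 0.165 and 0.113 FPKM in vehicle and 0.504, 0.671, 0.464 and 0.453 FPKM with JIB-04. The lowest JIB-04 value was thus above the highest vehicle value. The means were 0.128 ± 0.0316 and 0.523 ± 0.101 FPKM (SD, n = 4 per group), a ratio of 4.1. KDR was too low for the test across genes, and the 19.9% of comparably low genes with the same separation is the share to read it against. FLT1 exceeded KDR in all 8 libraries, by a ratio of 2.89 to 7.42 in vehicle and of 2.49 to 5.48 with JIB-04, ranges that overlap.

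NRP1 (ENSG00000099250, chromosome 10 from 33177492 to 33336262, minus strand), a co-receptor for VEGFA and for class 3 semaphorins, also rose. The vehicle libraries held 31.6, 29.2, 31.4 and 31.7 FPKM and the JIB-04 libraries held 80.6, 74.1, 74.6 and 77.9 FPKM. All JIB-04 libraries were far above all vehicle libraries. NRP1 rose from 31.0 ± 1.21 to 76.8 ± 3.04 FPKM (SD, n = 4 per group), a ratio of 2.48, and the log2 fold change was 1.30 (SE 0.05, 95% interval 1.18 to 1.41, limma adjusted p = 3.36e-08). It was the most abundant of the receptors and co-receptors in both groups.

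NRP2 (ENSG00000118257, chromosome 2 from 205681990 to 205798133, plus strand), the neuropilin tied to lymphatic vessels, showed no change that passed the test. Its vehicle values were 5.73, 3.87, 8.71 and 8.83 FPKM and its JIB-04 values were 6.69, 9.26, 7.26 and 9.39 FPKM. The groups overlapped, and vehicle replicate 2 was the lowest of the 8 libraries. The means were 6.78 ± 2.42 and 8.15 ± 1.38 FPKM (SD, n = 4 per group), with a log2 difference of 0.30 (SE 0.24, 95% interval -0.25 to 0.85, limma adjusted p = 0.291). That interval holds both no difference and a rise of nearly the size of the fall in PGF. Without vehicle replicate 2 the log2 difference was 0.08.

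The measured rise of NRP1 was larger than the difference measured for NRP2, which did not pass the test. The ratio of NRP1 to NRP2 was 5.52, 7.54, 3.61 and 3.59 in the vehicle libraries and 12.1, 8.01, 10.3 and 8.29 in the JIB-04 libraries. On the log2 scale it rose from 2.18 ± 0.48 to 3.17 ± 0.26 (SD, n = 4 per group), a change of 1.00 with an exact two-sided permutation p = 0.0286. NRP1 alone already separated the groups fully, and the pair was chosen with earlier results known. The p-value of this ratio therefore adds little evidence beyond the rise of NRP1. The groups were only narrowly apart, and without any 1 of the 4 JIB-04 libraries the exact p was 0.0571. NRP1 made up 78.2% to 88.3% of the summed neuropilin FPKM in the vehicle libraries and 88.9% to 92.3% in the treated ones, and the sum itself went from 37.8 ± 3.46 to 84.9 ± 2.77 FPKM (SD, n = 4 per group).

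**Figure D4:**
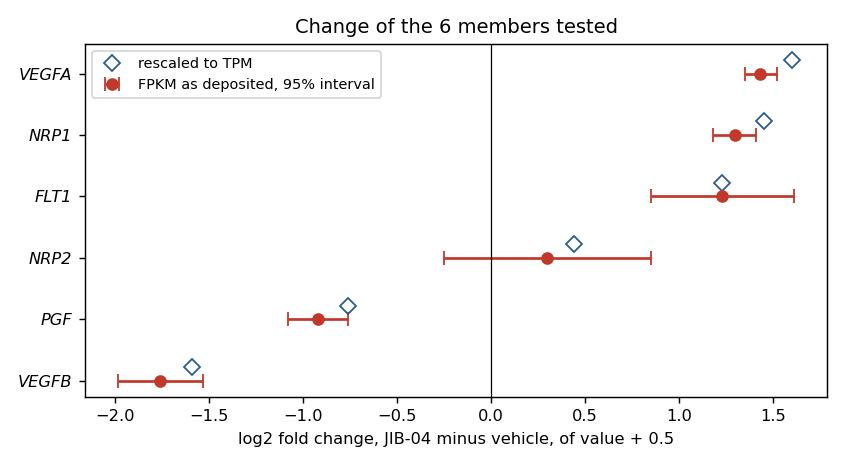
Log2 fold changes of the 6 genes tested, JIB-04 minus vehicle, on the log2(value + 0.5) scale; circles with bars are FPKM as deposited with 95% intervals, and open diamonds are values rescaled to TPM. VEGFA, NRP1 and FLT1 lie above 0 and PGF and VEGFB below it on both scales, and the interval of NRP2, -0.25 to 0.85, includes 0.

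Levels fell in the order VEGFA, VEGFB, PGF, NRP1, NRP2, FLT1, KDR and VEGFC in vehicle. With JIB-04 the order was VEGFA, NRP1, PGF, VEGFB, NRP2, FLT1, KDR and VEGFC, so NRP1 moved above both falling ligands and PGF moved above VEGFB. No neighbours in either order had overlapping ranges of FPKM. The closest were VEGFB and PGF in vehicle, with a ratio of means of 1.32, and PGF and VEGFB with JIB-04, with a ratio of 1.36. An exact two-sided permutation test over the 8 libraries gave p = 0.0286 for each gene but NRP2, whose exact p was 0.343.

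Rescaling FPKM to TPM (each library scaled to the same sum) shifted the median change over all genes upward by 0.15 in log2. On that scale the log2 fold changes were 1.60 for VEGFA, -1.59 for VEGFB, -0.76 for PGF, 1.23 for FLT1, 1.45 for NRP1 and 0.44 for NRP2, so directions and calls were kept. Antisense genes that lie over VEGFA, VEGFC, KDR and NRP2 in GENCODE release 29 were listed at 0 in every library, and AL121748.2, antisense to NRP1, reached at most 0.356 FPKM.

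Promoter sequence was taken from RefSeq (GRCh38.p14), as 250 bases before to 50 bases after each gene's start, for 6 of the 8 genes: VEGFB, VEGFC, PGF, FLT1, KDR and NRP2. VEGFA and NRP1 were not matched. The windows were searched on both strands for ACGTG and GCGTG, the core letters of the element that HIF binds. HIF is the best known activator of VEGFA, but the window of VEGFA itself was not among those searched. Sites outside these windows were not searched. ACGTG was in none of them and in 21.4% of the 35116 promoters of the same length. GCGTG was in those of VEGFB, VEGFC, FLT1 and PGF, 4 of the 6 genes, and in 36.5% of all promoters, and 48.4% held either. PGF had 2 overlapping windows, and both held GCGTG. The shares over all promoters count windows, not genes. The stretches from 250 to 51 bases before the start are shown for VEGFB, which fell, and FLT1, which rose, because both hold the same letters, in capitals (GCGTG, or its complement CACGC). VEGFB lies at chr11:64234334-64234533 on the plus strand, with the match starting 61 bases before the start, and FLT1 at chr13:28495179-28495378 on the minus strand, with the match starting 206 bases before the start.
VEGFB: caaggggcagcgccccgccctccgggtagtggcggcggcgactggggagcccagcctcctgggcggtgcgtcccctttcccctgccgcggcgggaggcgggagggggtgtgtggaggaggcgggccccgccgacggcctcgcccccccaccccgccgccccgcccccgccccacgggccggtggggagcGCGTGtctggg
FLT1: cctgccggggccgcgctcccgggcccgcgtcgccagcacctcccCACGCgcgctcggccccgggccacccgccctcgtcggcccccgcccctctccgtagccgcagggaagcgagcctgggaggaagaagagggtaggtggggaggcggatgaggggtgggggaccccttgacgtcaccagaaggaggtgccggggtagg
The shared letters thus stood before a gene that fell and a gene that rose, and a match is a description of these windows only.

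The closest relatives of these genes, and the semaphorins and plexins that share the neuropilins, moved in both directions. Of 15 such genes, 9 were tested, 3 were higher and 6 were lower, with a median log2 fold change of -0.40. Rescaled to TPM, 3 were higher and 4 were lower, and over the alternatives the number lower lay between 4 and 6. For each list, the shares to read the counts against are the 34.2% higher and 38.0% lower of all genes, which became 7061 genes higher and 5424 lower after rescaling to TPM. SEMA3C, a secreted class 3 semaphorin and neuropilin ligand, rose from 4.92 ± 0.828 to 31.0 ± 5.92 FPKM (SD, n = 4 each, log2 change 2.53, SE 0.15, limma adjusted p = 5.08e-07). SEMA3F, the semaphorin that binds mainly NRP2, fell from 1.91 ± 0.25 to 0.718 ± 0.115 FPKM (SD, n = 4 each, log2 change -0.98, SE 0.15, limma adjusted p = 0.000212), and it entered the test only through its vehicle values. FLT4, the receptor for VEGFC, fell from 9.57 ± 1.28 to 3.76 ± 1.28 FPKM (SD, n = 4 each, log2 change -1.28, SE 0.20, limma adjusted p = 0.000345), while VEGFD, its other ligand, was too low for the test, at 0.253 to 0.489 FPKM in the vehicle libraries and 1.13 to 1.91 FPKM in the treated ones. The mean of FLT4 was above those of FLT1 and KDR in each group, although with JIB-04 its lowest library (2.36 FPKM) lay below the highest of FLT1. Among the plexins, the signaling partners of neuropilins in the semaphorin response, PLXND1 rose (log2 fold change 0.58, limma adjusted p = 0.000695), whereas PLXNA1 (-0.46, limma adjusted p = 0.00505) and PLXNA3 (-0.41, limma adjusted p = 0.00111) fell. The plexins were picked out after their values were seen. Without a filter on low values 5 of the 15 were higher, as were 8223 of all genes, against 5964 with the filter.

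Genes that carry the signal of VEGF receptors were expressed and split by direction. Of 61 listed, 58 were tested, 20 rose, 25 fell and 13 did not pass, and the median log2 fold change was -0.07, equal to that of all genes. On the TPM scale 27 were higher and 19 lower, or 58.7% higher among those called against 44.4% before, as the share over all genes went from 47.3% to 56.6% with the same scaling. With a minimum mean of 5 FPKM, 16 were higher and 25 lower, against 4575 and 5387 of all genes. SPHK1, the kinase that makes sphingosine 1-phosphate, rose from 0.77 ± 0.101 to 9.85 ± 1.07 FPKM (SD, n = 4 each, log2 change 3.02, SE 0.12, limma adjusted p = 3.18e-08), and it entered the test only through its JIB-04 values. SHC2 (means of 0.464 and 3.3 FPKM) and PTPN6 (0.884 and 2.14 FPKM), also among the higher ones, entered it the same way. HSPB1, a small heat shock protein phosphorylated downstream of KDR, fell from 552 ± 40.4 to 153 ± 13.2 FPKM (SD, n = 4 each, log2 change -1.85, SE 0.07, limma adjusted p = 3.25e-08). MAP2K1, a MAP kinase kinase, rose from 73.4 ± 1.74 to 167 ± 9.69 FPKM (SD, n = 4 each, log2 change 1.18, SE 0.05, limma adjusted p = 5.46e-08).

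Of 14 regulators of VEGFA transcription and messenger RNA, 12 were tested, 6 were higher and 5 were lower, with a median log2 fold change of 0.13. Rescaled to TPM, which moved the median change over all genes upward, 6 were higher and 3 were lower. ATF4, a stress-induced transcription factor known to activate VEGFA, rose from 694 ± 24.4 to 1.24e+03 ± 21.2 FPKM (SD, n = 4 each, log2 change 0.84, SE 0.03, limma adjusted p = 4.35e-08). ELAVL1, an RNA-binding protein that stabilizes VEGFA messenger RNA, fell from 195 ± 4 to 104 ± 3.36 FPKM (SD, n = 4 each, log2 change -0.90, SE 0.04, limma adjusted p = 5.84e-08). ZFP36, which promotes decay of messenger RNAs with AU-rich elements, rose from 6.48 ± 0.771 to 24.1 ± 3.46 FPKM (SD, n = 4 each, log2 change 1.81, SE 0.12, limma adjusted p = 7.99e-07). Genes known to raise and to lower VEGFA messenger RNA were therefore among those that rose. HIF1A, the oxygen-regulated HIF subunit, picked out after its value was seen, rose from 103 ± 15.4 to 146 ± 14.5 FPKM (SD, n = 4 each, log2 change 0.50, SE 0.11, limma adjusted p = 0.00217), and EPAS1, its relative, was too low for the test, with means of 0.199 ± 0.116 and 1.45 ± 0.617 FPKM. The part of any of these genes in the change of VEGFA was not tested.

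Other growth factors, inhibitors and receptors of vessels held large changes in both directions. Of 37 genes, 22 were tested, 10 rose, 6 fell and 6 did not pass, with a median log2 fold change of 0.14. At least 2-fold, 6 were higher and 5 were lower, against 13.1% and 11.8% of all genes tested. Among the higher ones, THBS1 (means of 0.128 and 6.61 FPKM) and PDGFA (0.399 and 3.61 FPKM) entered the test only through their JIB-04 values. The count of higher genes was 18 without a filter and 6 with a minimum mean of 5 FPKM. Over all genes, 8223 were higher without a filter and 4575 with that minimum, against 5964 in the main test. CXCL8, a chemokine that attracts neutrophils and promotes vessel growth, rose from 0.752 ± 0.171 to 48.4 ± 2.22 FPKM (SD, n = 4 each, log2 change 5.30, SE 0.10, limma adjusted p = 1.05e-09), and it too entered the test only through its JIB-04 values. EFNB2, an ephrin ligand that marks arteries, rose from 5.76 ± 0.456 to 79.8 ± 1.45 FPKM (SD, n = 4 each, log2 change 3.68, SE 0.06, limma adjusted p = 5.33e-10). ANGPTL4, a secreted inhibitor of lipoprotein lipase, rose from 2.96 ± 0.283 to 22.6 ± 1.81 FPKM (SD, n = 4 each, log2 change 2.74, SE 0.09, limma adjusted p = 1.38e-08). The 5 genes lower at least 2-fold, named after their values were seen, were RAMP2 (log2 fold change -1.82), SERPINF1 (-1.65), PDGFRB (-1.23), VASH1 (-1.21) and EPHB4 (-1.14), the last being the receptor of EFNB2. DLL4, the Notch ligand of vessel tip cells, was too low for the test, with 0.0139 to 0.0749 FPKM in the vehicle libraries and 0.949 to 1.33 FPKM in the treated ones, and so was PDGFRA, a receptor for platelet-derived growth factor, with 0.0716 to 0.72 and 0.758 to 1.99 FPKM.

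**Figure D5:**
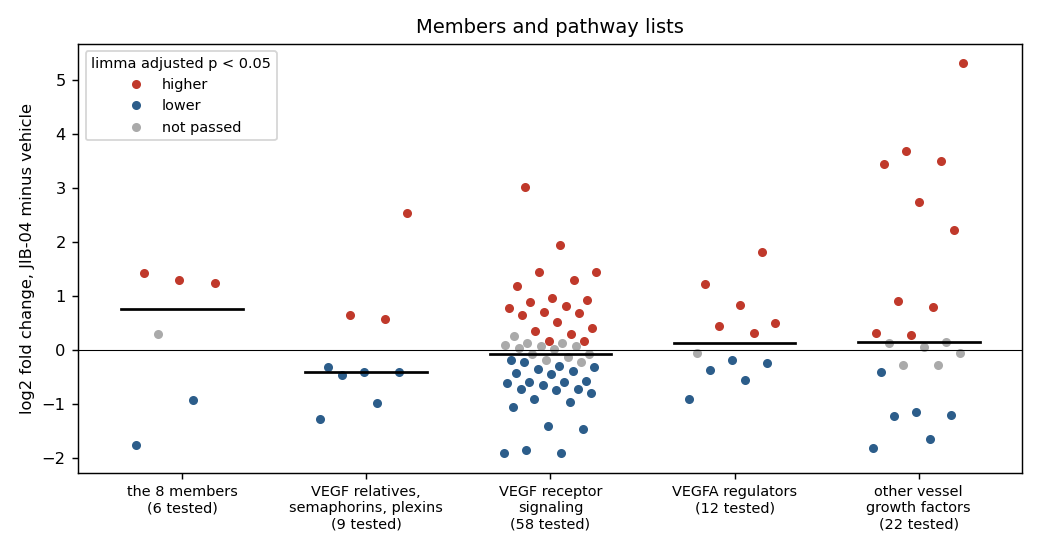
Each point is a gene tested, by its log2 fold change (JIB-04 minus vehicle, log2(FPKM + 0.5) scale), for the VEGF ligands, receptors and neuropilins and for the 4 lists of related genes; red genes were higher, blue genes lower and grey genes did not pass, and black lines are medians. Every list holds genes on both sides of 0, with medians from -0.40 for relatives, semaphorins and plexins to 0.76 for the 6 genes tested.

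KDR and FLT1 are themselves typical of endothelial cells, so other markers of that cell type were examined. Of 12 markers, 3 were tested. EMCN (34.4 ± 5.73 to 9.91 ± 1.55 FPKM) and EGFL7 (86.5 ± 7.96 to 39.0 ± 6.76 FPKM) fell and ESAM (1.14 ± 0.121 to 4.81 ± 0.546 FPKM; SD, n = 4 per group for the 3 genes) rose, by limma. The summed level of the 12 markers was 114 to 135 FPKM in the vehicle libraries and 50.7 to 63.6 FPKM in the treated ones, most of it from EMCN and EGFL7. TEK was at 0 in all 8 libraries, ROBO4 and CD34 were at 0 in the 4 vehicle libraries and reached at most 0.387 and 0.0941 FPKM with JIB-04, and CDH5, the endothelial cadherin, had means of 0.146 ± 0.0349 and 0.0698 ± 0.0308 FPKM (SD, n = 4 per group). VWF (0.00566 to 0.132 and 0.287 to 0.815 FPKM) and TIE1 (0 to 0.0207 and 0.0917 to 0.455 FPKM) were higher in every treated library. The same held for 19.9% of the 10580 genes with a mean between 0.05 and 1 FPKM. CDH5 was lower in every treated library (0.111 to 0.188 and 0.0346 to 0.104 FPKM). PECAM1 (0.33 to 0.809 and 0.746 to 1.68 FPKM), CLDN5 (0.0438 to 0.541 and 0.375 to 0.604 FPKM) and ERG (0 to 0.0663 and 0.0367 to 0.122 FPKM) overlapped between groups. The summed leukocyte markers (PTPRC, CD14 and ITGAM) went from 0.638 to 0.753 FPKM in vehicle to 2.83 to 4.8 FPKM with JIB-04. Most of it came from ITGAM (means of 0.295 and 2.39 FPKM) and CD14 (0.386 and 1.08 FPKM). PTPRC reached at most 0.0551 FPKM in any library. The summed epithelial markers (EPCAM, CDH1, KRT8 and KRT18) went from 316 to 338 FPKM to 304 to 321 FPKM. Of these, KRT8 was higher (23.2 ± 1.52 to 71.5 ± 3.76 FPKM) and KRT18 lower (302 ± 8.95 to 243 ± 6.66 FPKM). The part of these markers in the rise of FLT1 and KDR was not tested.

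For VEGFA, VEGFB, PGF and NRP1, the genes with the most similar pattern over the 8 libraries were found by the root mean square difference of log2(FPKM + 0.5) after each gene's own vehicle mean was subtracted. Closest to VEGFA were TSC1 (0.0448), KCTD5 (0.0456) and CNOT4 (0.0504). Closest to VEGFB were PAQR4 (0.051), MVB12B (0.0681) and ADAM15 (0.0685). Close to PGF were PFKL (0.0349) and ZC3H7B (0.0368), and closest to NRP1 were HEATR5B (0.0284), SLC35F2 (0.0463) and RARA (0.0471). With 17460 genes to choose from, such near matches describe these libraries only.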

How the data were processed

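Total RNA of 8 libraries was measured by directional poly(A) RNA-seq. Per the submitters' processing notes, the authors used GSNAP, SAMtools, Cufflinks and GRCh38, and the FPKM they deposited were used with no further normalization. The strand setting and the handling of reads shared by gene copies are not given in the sources used here. The table's 66095 entries cover 65975 identifiers, and entries were added up for the 117 identifiers that had several. In addition, 31 names turned into dates were restored, and 13 genes with placeholder values were left out. GENCODE release 29 (GRCh38) gave coordinates and GC content for 56906 identifiers.

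The 17460 genes that averaged 1 FPKM or more across all libraries entered a linear model of log2(FPKM + 0.5) (limma 3.58.1, R 4.3.3, lmFit, eBayes with trend). P-values were adjusted over these genes by Benjamini-Hochberg and called under 0.05, and a change was called 2-fold from 1 upward in log2 size. Single genes and ratios were compared by exact two-sided permutation tests. Python 3.11.15 with pandas 2.3.3, numpy 2.4.6 and matplotlib 3.10.9 was used for tables and figures. The genes and lists were chosen with earlier results of these data known. Named genes were all 8 genes of the family, the 3 genes of each related list with the smallest adjusted p, untested list genes with a mean of 1 FPKM in a group, and the 3 genes closest in pattern to each called gene with a mean of at least 5 FPKM, of which 1 is not reported here. The alternatives were pseudocounts of 0.1 and 1, no filter, a minimum mean of 5 FPKM, a gene-by-gene analysis of variance on FPKM, quantile and median-ratio scaling, rescaling to TPM, a replicate block, and leaving out each library. Removal of the GC trend was added after the data had been seen. Absolute depth is unknown, so the spread between libraries is given as the error.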

Additional observations from a re-analysis of the deposited data

Results flagged for a closer look

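NRP1 in vehicle replicate 2 was at 29.2 FPKM, below the other vehicle libraries at 31.4 to 31.7 FPKM. Its gap to the nearest of them was 0.866 of the group's range, above Dixon's 95% critical value for 4 samples. It was 1 of 16 groups examined (8 genes in 2 groups), and chance alone marks about 1 group in 20. The log2 fold change of NRP1 lay between 1.27 and 1.31 when each library was left out in turn.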

How the results depend on the processing

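The 6 log2 fold changes tested kept their direction in all 107 alternative values computed, and the calls of VEGFA, VEGFB, PGF and NRP1 held in each. FLT1 was not tested with a minimum mean of 5 FPKM, since its mean is lower, and 5 genes of the family were higher without a filter, where KDR (limma adjusted p = 0.000277) and VEGFC were added. Adjusted p over the alternatives ranged from 1.21e-09 to 2.25e-06 for VEGFA, from 1.4e-07 to 8.29e-06 for VEGFB, from 7.32e-07 to 4.15e-05 for PGF, from 6.9e-05 to 0.000707 for FLT1, from 1.53e-08 to 5.2e-06 for NRP1 and from 0.126 to 0.729 for NRP2. The log2 difference of KDR (0.70) became 1.45 with a pseudocount of 0.1 and 0.43 with 1, and the log2 fold change of FLT1 became 1.64 and 0.94, under 2-fold with the latter. With the GC trend removed, the log2 fold changes were -0.67 for PGF, 1.13 for FLT1, 1.18 for NRP1 and 0.38 for NRP2. Without a filter, 5 relatives and 18 vessel genes were higher, a minimum mean of 5 FPKM left 6 vessel genes higher, since fewer genes entered, and rescaling to TPM left 3 regulators lower.

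Leaving out each library gave 3 genes higher and 2 lower every time, and log2 fold changes of 1.42 to 1.45 for VEGFA, -1.84 to -1.67 for VEGFB, -0.96 to -0.87 for PGF, 1.16 to 1.32 for FLT1 and 0.08 to 0.44 for NRP2. The log2 ratio of VEGFA to VEGFB changed by 3.11 to 3.27 and that of NRP1 to NRP2 by 0.87 to 1.19, the exact p of the latter being 0.0571 without any 1 JIB-04 library. Correlations of deviations were -0.058 to 0.0823 for same-numbered libraries of the 2 groups and -0.138 to 0.102 for different-numbered ones. Whether same-numbered libraries were paired is not known from the labels. With a replicate block the changes of the ratios were 3.19 and 1.00 with an exact sign-flip p = 0.125, the smallest that 4 pairs allow, and the block changed no call of the 6 genes. VEGFC and KDR were too low for the test, and the absolute depth behind their values is unknown.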

Other observations

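Within the list of VEGF receptor signaling genes, several close relatives stood on opposite sides of 0. These relatives were picked because their values differed and are therefore given with no test. MAP2K1 had a log2 fold change of 1.18 and MAP2K2 of -0.59, SPHK1 of 3.02 and SPHK2 of -1.40, and NFATC1 of 0.97 and NFATC4 of -1.90. GC content moved with some of these differences: MAP2K2 (60.9%) was richer in GC than MAP2K1 (50.4%), whereas SPHK1 (65.5%) and NFATC1 (60.2%) were richer than SPHK2 (63.2%) and NFATC4 (58.6%). With the GC trend removed the values were 1.26 and -0.17 for MAP2K1 and MAP2K2, 3.61 and -0.90 for SPHK1 and SPHK2, and 1.37 and -1.54 for NFATC1 and NFATC4. The relatives NCK1 and NCK2, at 0.17 and -0.36 before, came to -0.37 and -0.02, so their order turned.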
